A study of Mus musculus with 6 samples.

Results

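Of the 54532 genes in the deposited table, 9 are described here: genes through which endothelium starts, restrains and dissolves blood clots. They were taken by symbol, and each symbol matched a single row. F3 and Vwf are procoagulant, Thbd, Procr and Tfpi are anticoagulant, and Plat, Plau, Plaur and Anxa2 belong to fibrinolysis. RNA was sequenced from primary brain microvascular endothelial cells (BMVECs), which line the capillaries of the brain, in 2 groups of 3 libraries. All cells came from wild-type C57BL/6J mice and were grown to confluence from digested vessel fragments, with puromycin in the medium early in the culture. One group received processed mouse IL-36β (DEVD mIL-36β) at 100 ng/ml for 24 h, and the other was left untreated; the labels give no vehicle and no time for the untreated cells. The labels do not say whether libraries came from separate animals or cultures, so p-values measure only the spread between these libraries, which may be technical.

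Coagulation begins when tissue factor, the product of F3, meets circulating factor VII, and it ends in thrombin and fibrin. Endothelium restrains this with tissue factor pathway inhibitor (Tfpi) and with thrombomodulin (Thbd), which turns thrombin into an activator of protein C bound to the endothelial protein C receptor (Procr). Fibrin is removed by plasmin, which tissue-type (Plat) and urokinase-type (Plau) plasminogen activators make from plasminogen at the cell surface, where the urokinase receptor (Plaur) and annexin A2 (Anxa2) gather the reactants. Inflammatory cytokines are known, in human umbilical vein endothelium, to raise F3 and lower Thbd.

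Promoters give one feature that the choice of genes did not use. RefSeq windows (build GRCm38.p6), from 250 bases before to 50 bases after the start site, were at hand for 5 of the 9 genes: F3, Procr, Plaur, Anxa2 and, with 2 start sites, Tfpi. The AP-1 motif TGANTCA, which reads the same on both strands, was found in 4 of these 5 genes and in neither window of Tfpi, while 7.81% of all 32851 windows in the reference table hold it. F3 has 2 matches, 146 and 135 bases upstream of its start site, and the others have 1 each, 154 bases upstream in Procr, 69 in Plaur and 95 in Anxa2. The 4 windows are shown because they carry this shared motif across the procoagulant, anticoagulant and fibrinolytic genes; capitals mark TGANTCA and nothing else.
F3, chr3:121723287-121723586, plus strand: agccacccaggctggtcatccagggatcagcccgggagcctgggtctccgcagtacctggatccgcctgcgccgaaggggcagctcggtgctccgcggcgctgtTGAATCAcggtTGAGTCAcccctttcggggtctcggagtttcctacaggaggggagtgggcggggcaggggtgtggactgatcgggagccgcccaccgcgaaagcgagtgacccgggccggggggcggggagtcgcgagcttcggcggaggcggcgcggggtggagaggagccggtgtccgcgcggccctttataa
Procr, chr2:155750967-155751266, plus strand: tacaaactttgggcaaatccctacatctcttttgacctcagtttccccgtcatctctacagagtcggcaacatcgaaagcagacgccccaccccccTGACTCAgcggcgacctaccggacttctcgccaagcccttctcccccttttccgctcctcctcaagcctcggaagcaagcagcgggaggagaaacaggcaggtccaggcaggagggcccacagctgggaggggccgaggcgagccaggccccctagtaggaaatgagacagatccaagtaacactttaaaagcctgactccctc
Plaur, chr7:24462233-24462532, plus strand: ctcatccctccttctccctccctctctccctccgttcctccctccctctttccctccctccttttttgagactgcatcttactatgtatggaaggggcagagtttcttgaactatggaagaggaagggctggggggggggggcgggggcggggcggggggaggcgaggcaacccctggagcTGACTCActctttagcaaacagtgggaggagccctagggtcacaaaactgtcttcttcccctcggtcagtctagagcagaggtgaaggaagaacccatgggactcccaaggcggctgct
Anxa2, chr9:69453433-69453732, plus strand: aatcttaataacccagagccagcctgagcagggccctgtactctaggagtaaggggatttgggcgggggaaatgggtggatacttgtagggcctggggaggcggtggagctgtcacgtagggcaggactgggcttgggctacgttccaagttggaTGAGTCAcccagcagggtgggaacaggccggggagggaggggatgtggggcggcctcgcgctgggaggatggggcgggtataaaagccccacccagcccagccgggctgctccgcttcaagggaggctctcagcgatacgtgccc
The other motifs searched, on both strands, were κB as GGG and CC separated by 5 bases of any kind, the KLF motif as CACCC and the TATA box as TATAAA. κB matches were in all 5 genes, CACCC in 4 and TATAAA in 3, against 50.8%, 57.5% and 13.6% of all windows. In F3 and in Anxa2 a CACCC match begins within the last letters of an AP-1 match, and κB matches on opposite strands often overlap each other. A match is a description of letters and was not tested as a binding site.

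The libraries held 15180389 to 19544689 reads assigned to genes. All 12 endothelial markers were expressed, with a summed level of 2729 to 3445 FPKM in IL-36β libraries and 2623 to 3046 FPKM in untreated libraries. Tek was at 11.9 to 17.5 FPKM with IL-36β and 8.36 to 11.3 FPKM in untreated cells. Esam was at 352 to 451 FPKM with IL-36β and 330 to 344 FPKM in untreated cells. These did not overlap between the groups, while the other endothelial markers did. Markers of smooth muscle, all 5 measured, summed to 373 to 825 FPKM with IL-36β and 419 to 1396 FPKM in untreated cells, nearly all of it Acta2. Of these 5, Myh11 was at 2.055 to 4.60 FPKM with IL-36β and 6.02 to 11.6 FPKM in untreated cells, and Cnn1 at 9.59 to 21.7 FPKM with IL-36β and 23.5 to 40.6 FPKM in untreated cells. Neither overlapped between the groups, while Acta2, Tagln and Des did. Of all genes tested, 7.24% were lower with IL-36β without overlap, and 16.2% did not overlap in either direction. Tagln was at 8.27 to 25.8 FPKM with IL-36β and 8.95 to 25.1 FPKM in untreated cells. Des was at 1.39 to 2.41 FPKM with IL-36β and 1.21 to 1.76 FPKM in untreated cells. Of 8 pericyte markers 3 passed the filter on low values (at least 0.5 FPKM in at least 3 of the 6 libraries), and their list summed to 4.24 to 7.03 FPKM with IL-36β and 5.99 to 7.16 FPKM without. Below the filter, pericyte Rgs5, Abcc9 and Vtn were lower with IL-36β without overlap, at no more than 0.315 FPKM in any library. Of 6 platelet and megakaryocyte markers 1 passed, the integrin Itgb3, and of 8 microglia and macrophage markers 1 passed, Cd68; the leukocyte marker Ptprc did not exceed 0.0202 FPKM, and hepatocyte Alb was at 0. The library names carry letters, and libraries D and E (IL-36β 2 and 3, untreated 3) differed from A and B (IL-36β 1, untreated 1 and 2) in 220 genes, which is 1.74% of those tested (limma, Benjamini-Hochberg adjusted p under 0.05). The labels name no such sets, and that they differ was known from earlier results of these data. Adjusted p-values between the sets are therefore descriptions only.

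The design asks what IL-36β does to these cells; for the 9 genes the question is how transcripts for forming, restraining and dissolving clots stood after the treatment. None of the 9 genes passed the threshold in limma, where 23 of 12618 genes tested (0.182%) did, or in edgeR, where 0.293% did. Without adjustment, 2 of the 9 (Vwf and Thbd) were lower with IL-36β at p under 0.05 in limma and none was higher, while 10.4% of all genes were past that mark and 4.41% were lower. In edgeR and in DESeq2, on reads recovered from the table, 2 of the 9 had an unadjusted p under 0.05. The share of all genes past that mark was not taken for these methods, so these counts cannot be weighed. DESeq2 called 1 of the 9, Thbd, which was lower with IL-36β; it called 2.1% of genes, with 0.808% of genes lower and 1.29% higher. In bulk RNA, fewer cells of a type and less RNA per cell cannot be told apart. Both procoagulant genes and 2 of the 3 anticoagulant genes had fitted log2 fold changes below 0, with medians of -0.78 and -0.38. Without IL-36β library 3 these medians were -0.49 and -0.22, without untreated library 2 the anticoagulant one was -0.22, and with a term for the library set they were -0.56 and -0.10. With the library letter as block they were -0.38 and 0.02. The 4 fibrinolytic genes were split, 2 above and 2 below 0, with a median of -0.003; over all genes tested the median was 0.002.

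**Figure D1:**
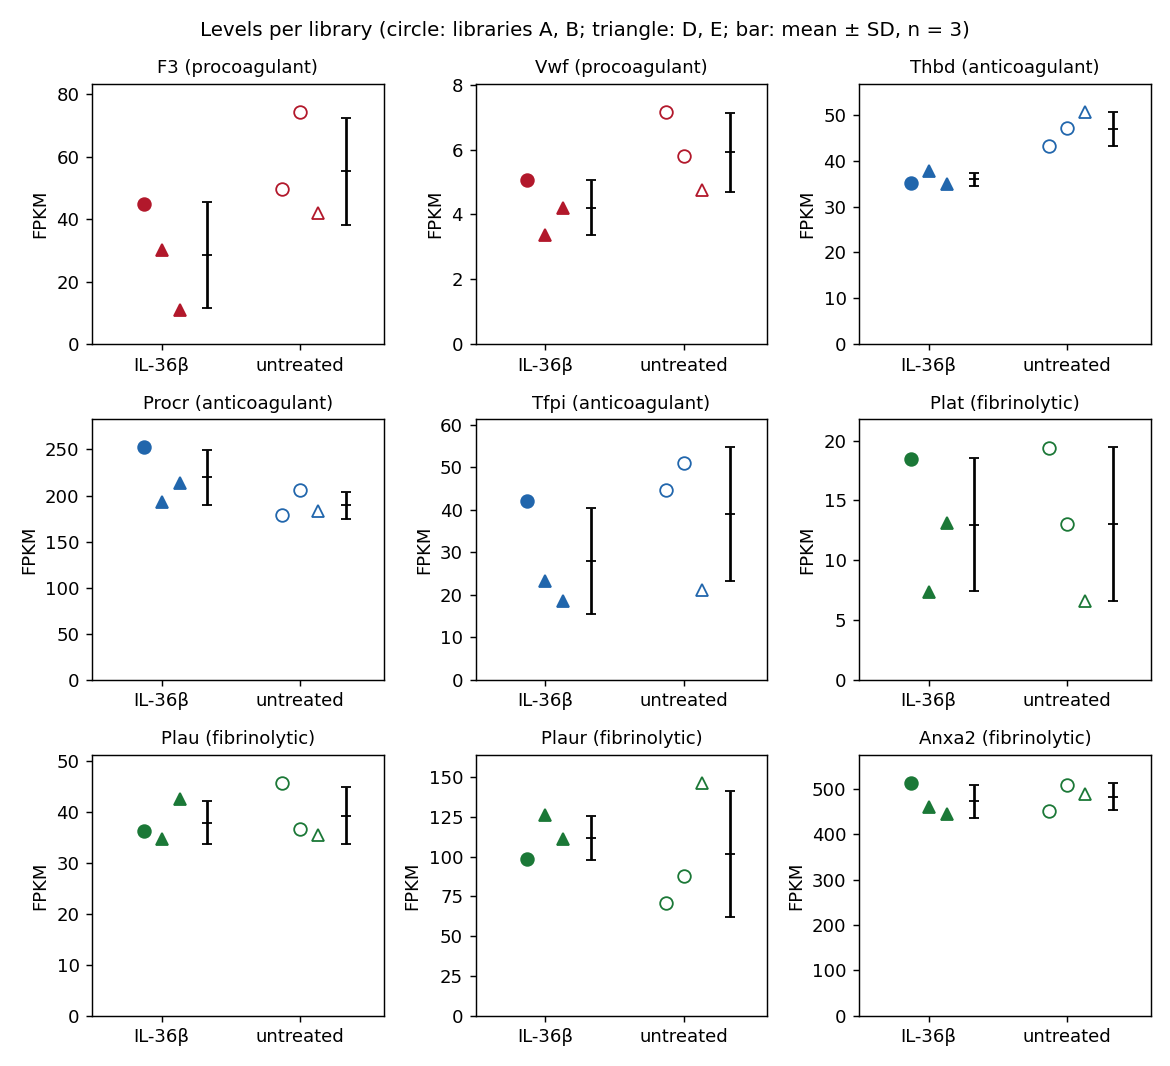
FPKM (vertical axes, from 0) of the 9 genes in each IL-36β (filled) and untreated (open) library, with circles for libraries A and B, triangles for D and E, and bars for the mean ± SD of 3 libraries. Thbd is the only gene of the 9 whose groups do not overlap. Tfpi lies apart by library set. Plat is mostly lower in D and E, but its sets overlap, with IL-36β library 3 at 13.07 FPKM and untreated library 2 at 13.04 FPKM.

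F3 encodes tissue factor (ENSMUSG00000028128, GRCm38 chromosome 3, 121723537 to 121735048, plus strand). Its level was 44.7, 30.2 and 10.8 FPKM in IL-36β libraries 1 to 3, against 49.6, 74.4 and 41.8 FPKM in untreated libraries 1 to 3. IL-36β libraries 2 and 3 lay below every untreated library, while IL-36β library 1 lay inside the untreated range. The means were 28.6 ± 17.0 FPKM with IL-36β and 55.3 ± 17.0 FPKM without (SD, n = 3 each), from 3506 and 7468 reads. The fitted difference was 2.16-fold lower with IL-36β (log2 fold change -1.11, 95% confidence interval -2.24 to 0.01), which did not pass (limma adjusted p = 0.487). It was lower in both library sets, by a log2 difference of -0.44 within A and B and -1.18 within D and E. The size depended on the libraries and the model: the log2 fold change was -0.54 without IL-36β library 3, -0.81 with a term for the library set and -0.30 with the library letter as block. Libraries D and E were 1.87-fold lower than A and B, which did not pass (limma adjusted p = 0.337). Of the 5 smooth muscle markers, Myh11 and Cnn1 were lower in every IL-36β library than in any untreated one, as were 7.24% of all genes tested. Acta2, Tagln and Des overlapped between the groups, as F3 did. The part of smooth muscle cells in the F3 values and the other lower values was not tested. F3 had the widest relative spread of the 9 genes among IL-36β libraries, with an SD of 59.6% of the mean.

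Vwf encodes von Willebrand factor (ENSMUSG00000001930, chromosome 6, 125546774 to 125686679, plus strand), the large multimer that tethers platelets and carries factor VIII. It was the lowest of the 9 genes at 5.07, 3.37 and 4.20 FPKM with IL-36β and 7.18, 5.81 and 4.76 FPKM in untreated cells. IL-36β library 1 lay just above untreated library 3, so the groups overlapped at that pair. The exonic length used for the gene, which has 11 annotated transcripts, is 16064 bases. FPKM divides by this length, so the low level of Vwf depends on it. These levels rest on 3380 reads with IL-36β and 4940 without, near the 4022 and 4245 reads of Plat. The log2 fold change was -0.44 (95% confidence interval -0.87 to -0.01; limma adjusted p = 0.468), with -0.32 within libraries A and B and -0.30 within D and E.

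Thbd, the gene of thrombomodulin (ENSMUSG00000074743, chromosome 2, 148404466 to 148408188, minus strand), has a single exon in the annotation. It stood at 35.1, 37.7 and 35.0 FPKM in IL-36β libraries, against 43.1, 47.2 and 50.7 FPKM in untreated libraries. Every IL-36β library lay below every untreated library, a pattern that 7.24% of all genes tested showed in this direction and 16.2% in either. The means were 35.9 ± 1.52 FPKM with IL-36β and 47.0 ± 3.77 FPKM in untreated cells (SD, n = 3 each). The fitted log2 fold change was -0.38 (95% confidence interval -0.60 to -0.16; limma adjusted p = 0.228; edgeR adjusted p = 0.200). DESeq2 on the recovered reads placed it just under the threshold (adjusted p = 0.0487). Over all the other settings tried the limma and edgeR adjusted p ranged from 0.127 to 0.712. The difference was -0.36 within libraries A and B and -0.47 within D and E on the log2 scale. Klf2 and Klf4, transcription factors known to induce THBD in human endothelium, had log2 fold changes of 0.15 and -0.19 that did not pass (limma adjusted p = 0.783 and 0.624).

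Procr, the protein C receptor (ENSMUSG00000027611, chromosome 2, 155751117 to 155755471, plus strand), was the second most abundant of the 9 genes. Its levels were 252, 193 and 213 FPKM with IL-36β and 179, 206 and 183 FPKM without. Untreated library 2 lay between the IL-36β libraries, so the groups overlapped. The log2 fold change was 0.21 (95% confidence interval -0.10 to 0.51; limma adjusted p = 0.602), with 0.39 within libraries A and B and 0.15 within D and E. It was 0.10 without IL-36β library 1 and 0.067 with quantile scaling. Procr is the only one of the 9 genes in the authors' deposited table of 660 differential genes, which lists a log2 fold change of 0.59 with p = 0.0399 and an adjusted p of 0.999. That adjusted p stands beside every gene of that table. DESeq2 on the 6 libraries used here gave a log2 fold change of 0.20 for Procr. The authors' table also holds columns of 4 other libraries, and why the 2 values differ was not tested. The authors' deposited table of ontology terms counts Procr among 8 genes of 365 under blood coagulation (p = 0.0106, adjusted p = 0.0868); the other 7 are Pik3cd, Tyro3, Fermt3, C3, Alox12, Cx3cl1 and Adra2a, none of them among the genes listed here.

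Tfpi, the inhibitor of the tissue factor and factor VII complex (ENSMUSG00000027082, chromosome 2, 84432855 to 84476775, minus strand), was at 42.1, 23.2 and 18.6 FPKM with IL-36β and 44.7, 50.9 and 21.1 FPKM without. The lower values were those of libraries D and E, whichever the treatment. In a model with both terms, libraries D and E were 2.11-fold lower than A and B (limma adjusted p = 0.0111), and Tfpi was the only one of the 9 genes called between the library sets. The labels name no such sets, and they were known to differ from earlier results of these data. This adjusted p is therefore a description only. The same model gave a log2 fold change with IL-36β of -0.10 (95% confidence interval -0.38 to 0.18; limma adjusted p = 0.740), against -0.46 (-1.38 to 0.45; limma adjusted p = 0.701) over all libraries without the set. Thbd, Procr and Tfpi thus had fitted differences in both directions, and their intervals over all 6 libraries together spanned 0.385-fold to 1.42-fold.

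**Figure D2:**
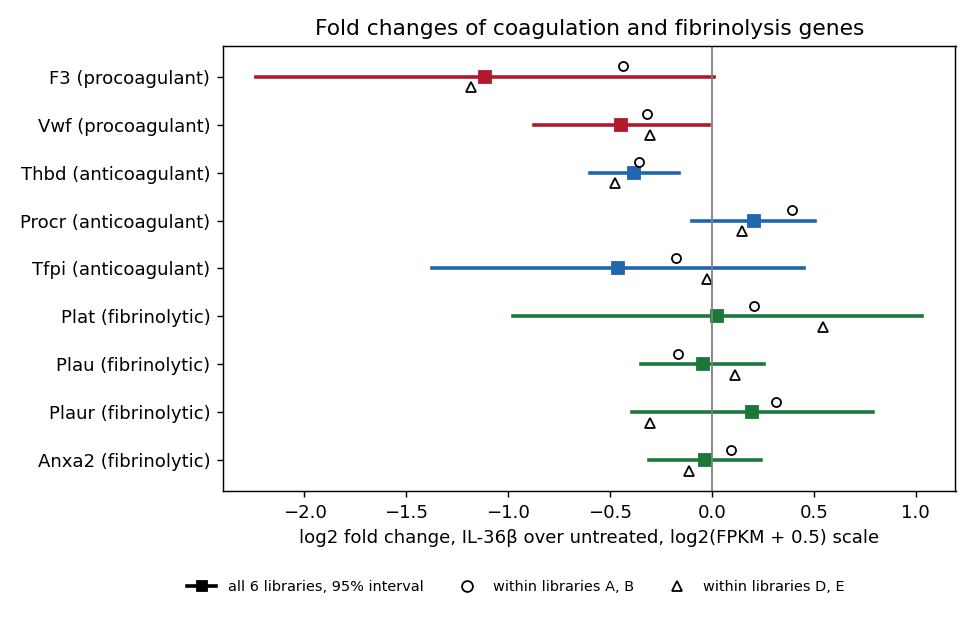
Log2 fold change of each of the 9 genes, IL-36β over untreated (squares, with 95% confidence intervals from limma on 6 libraries), with the differences within libraries A and B (circles) and within D and E (triangles). F3, Vwf, Thbd and Tfpi lie below 0 in all 3 values, and Plau, Plaur and Anxa2 take opposite signs in the library sets.

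Among the fibrinolytic genes, Plat, tissue-type plasminogen activator (ENSMUSG00000031538, chromosome 8, 22757727 to 22782844, plus strand), was at 18.4, 7.33 and 13.1 FPKM with IL-36β and 19.4, 13.04 and 6.55 FPKM without. The ranges of the 2 groups coincided almost fully. The log2 fold change was 0.03 with a wide interval of -0.98 to 1.03 (limma adjusted p = 0.989). Libraries D and E were 2.07-fold lower than A and B, which did not pass (limma adjusted p = 0.108). Within the sets the differences with IL-36β were 0.21 in A and B and 0.55 in D and E on the log2 scale.

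Plau, urokinase (ENSMUSG00000021822, chromosome 14, 20836660 to 20843385, plus strand), was at 36.3, 34.7 and 42.6 FPKM with IL-36β and 45.6, 36.5 and 35.5 FPKM without. Its log2 fold change was -0.05 (95% confidence interval -0.35 to 0.26; limma adjusted p = 0.917). The 2 groups held nearly the same range, and the interval spans 0.785-fold to 1.20-fold.

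Plaur, the urokinase receptor (ENSMUSG00000046223, chromosome 7, 24462484 to 24475968, plus strand), was at 98.3, 126 and 111 FPKM with IL-36β and 70.8, 87.8 and 146 FPKM without. Untreated library 3 was the highest of all 6, and the other 2 untreated libraries were the lowest. That library also had the highest sum of smooth muscle markers, 1396 FPKM, of which 1323 FPKM was Acta2. Of the other markers, Cnn1 was highest there (40.6 FPKM). Tagln was highest in IL-36β library 2 (25.8 FPKM), Myh11 in untreated library 2 (11.6 FPKM), and Des was lowest in untreated library 3 (1.21 FPKM). The part of such cells in the Plaur value was not tested. The log2 fold change was 0.20 (95% confidence interval -0.39 to 0.79; limma adjusted p = 0.804), with 0.32 within libraries A and B and -0.31 within D and E. The difference between these within-set values was -0.62 and did not pass (limma interaction term, adjusted p = 1.000). With the set as a term the log2 fold change was 0.005.

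Anxa2, the plasminogen and tissue-type activator receptor (ENSMUSG00000032231, chromosome 9, 69453620 to 69491795, plus strand), was the most abundant of the 9 genes at 513, 459.9 and 445 FPKM with IL-36β and 452, 510.0 and 489 FPKM without. It was also the steadiest relative to its level in untreated cells, with an SD of 6.07% of the mean, against 7.54% with IL-36β. The log2 fold change was -0.03 (95% confidence interval -0.31 to 0.24; limma adjusted p = 0.937). An antisense gene, Gm16144, and the microRNA locus Mir3109 overlap it with at most 13 and 4 reads in a library, against 88145 Anxa2 reads in the IL-36β and 93968 in the untreated group.

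**Figure D3:**
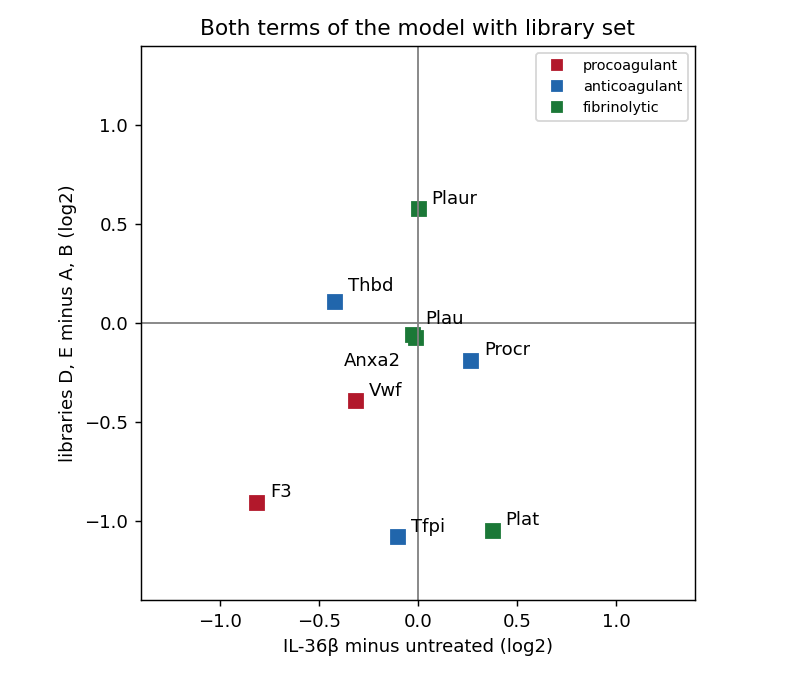
The 2 terms of a limma model on log2(FPKM + 0.5) of 6 libraries for each gene, with IL-36β minus untreated on the horizontal axis and libraries D and E minus A and B on the vertical axis, coloured by role. Tfpi and Plat are displaced by -1.08 and -1.05 along the library set, and F3 is displaced along both axes.

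On the per-length scale of FPKM the order of mean levels with IL-36β was Anxa2, Procr, Plaur, Plau, Thbd, F3, Tfpi, Plat and Vwf. In untreated cells it was Anxa2, Procr, Plaur, F3, Thbd, Plau, Tfpi, Plat and Vwf. Anxa2, Procr and Plaur did not overlap in either group. With IL-36β the ranges of Plau and Thbd, of Thbd and F3, and of F3 and Tfpi overlapped, and in untreated cells those of Plaur and F3, F3 and Thbd, Thbd and Plau, Plau and Tfpi, and Plat and Vwf did. F3 ranked 6 of 9 with IL-36β and 4 of 9 in untreated cells, between neighbours whose ranges overlapped its own. Among the 12618 genes tested, mean levels over the 6 libraries lay at the 99.5th percentile for Anxa2, the 90.7th for F3, the 90.6th for Thbd and the 44.9th for Vwf.

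The balance between roles was described by ratios of FPKM within a library, with no test, since 3 against 3 libraries cannot give an exact permutation p below 0.10. The ratio of F3 to Thbd was 1.28, 0.802 and 0.308 with IL-36β and 1.15, 1.58 and 0.826 in untreated cells. The ratio of F3 to Tfpi was 1.06, 1.30 and 0.581 with IL-36β and 1.11, 1.46 and 1.98 in untreated cells. Both ratios overlapped between the groups, and IL-36β library 3 was the lowest in each. The ratio of receptor to urokinase, Plaur to Plau, was 2.71, 3.63 and 2.60 with IL-36β and 1.55, 2.40 and 4.12 without, again with overlap. Anxa2 forms a tetramer with S100a10, and their ratio was the steadiest, from 3.00 to 3.23 with IL-36β and from 3.01 to 3.53 without.

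Beyond the 9 genes, 79 others of coagulation, fibrinolysis and platelet control were listed in 6 groups by role. Of these 53 passed the filter on low values, and 12 had no read in any library, among them Plg, Fga, Fgb, F7, F9, F10 and F12, which the liver makes. None passed limma or edgeR after adjustment; before it, 2 were higher and 4 lower with IL-36β in limma at p under 0.05, which is 6 of 53 beside the 10.4% of all genes. Fitted log2 fold changes were above 0 in 30 and below 0 in 23 of the 53, with a median of 0.02. Median log2 fold changes by list were 0.01 over the 10 procoagulant genes, -0.15 over the 4 thrombin and protease receptors and 0.05 over the 10 anticoagulant and antiplatelet genes. They were 0.03 over the 12 genes listed under von Willebrand factor storage and release, -0.01 over the 8 of the plasminogen system and 0.05 over the 9 regulators. DESeq2 called 1 higher and 3 lower, where it called 2.1% of all genes. With the library set as a term limma called none, where it called 0.808% of all genes.

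The 4 genes that DESeq2 called, chosen after their values were seen, had groups that did not overlap, which rests on the same values as the calls. Of the 53 genes, 3 higher and 4 lower ones did not overlap, beside 16.2% of all genes tested. Entpd1, the surface enzyme CD39 that breaks down platelet-activating ADP, was at 15.8, 16.0 and 15.6 FPKM with IL-36β and 20.1, 24.3 and 24.7 FPKM without (log2 fold change -0.52, 95% confidence interval -0.77 to -0.28; limma adjusted p = 0.143; DESeq2 adjusted p = 0.00272). Its difference was -0.47 within libraries A and B and -0.63 within D and E. Thbs1, the matrix glycoprotein thrombospondin 1, was at 933, 1072 and 1095 FPKM with IL-36β and 1463, 1444 and 1391 FPKM without (log2 fold change -0.47; limma adjusted p = 0.302; DESeq2 adjusted p = 0.00272). Its difference was -0.64 within libraries A and B and -0.36 within D and E. The authors' deposited table holds 3 of the listed genes: Thbs1 with a log2 fold change of -0.43 (p = 0.0372), Mmp3 with 2.39 (p = 0.00892) and Vtn with -3.60 (p = 0.0240), each with an adjusted p of 0.999. DESeq2 on the 6 libraries used here gave -0.48 for Thbs1 and 1.08 for Mmp3, and Vtn did not pass the filter.

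F5, coagulation factor V, was near the detection limit at 0.581, 0.205 and 0.104 FPKM with IL-36β and 0.762, 1.20 and 0.709 FPKM without, from 106 and 354 reads in all (limma adjusted p = 0.362; DESeq2 adjusted p = 0.0494). Serpinb2, which stands in the procoagulant list and encodes plasminogen activator inhibitor 2, was the only one of the 4 that was higher. It was at 1.10, 8.73 and 6.37 FPKM with IL-36β and 0.629, 0.672 and 0.498 FPKM without (log2 fold change 2.09, 95% confidence interval 0.71 to 3.46; limma adjusted p = 0.301; DESeq2 adjusted p = 0.00759). Its difference was 0.47 within libraries A and B and 3.00 within D and E, which did not differ past the threshold (limma interaction term, adjusted p = 0.822). IL-36β library 1 is the only treated library in A and B, so that library and the set cannot be told apart. Without this library, the lowest of the treated ones, limma called Serpinb2 higher as well (adjusted p = 0.0249). Over the other limma, edgeR and DESeq2 settings the adjusted p reached 0.687.

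**Figure D4:**
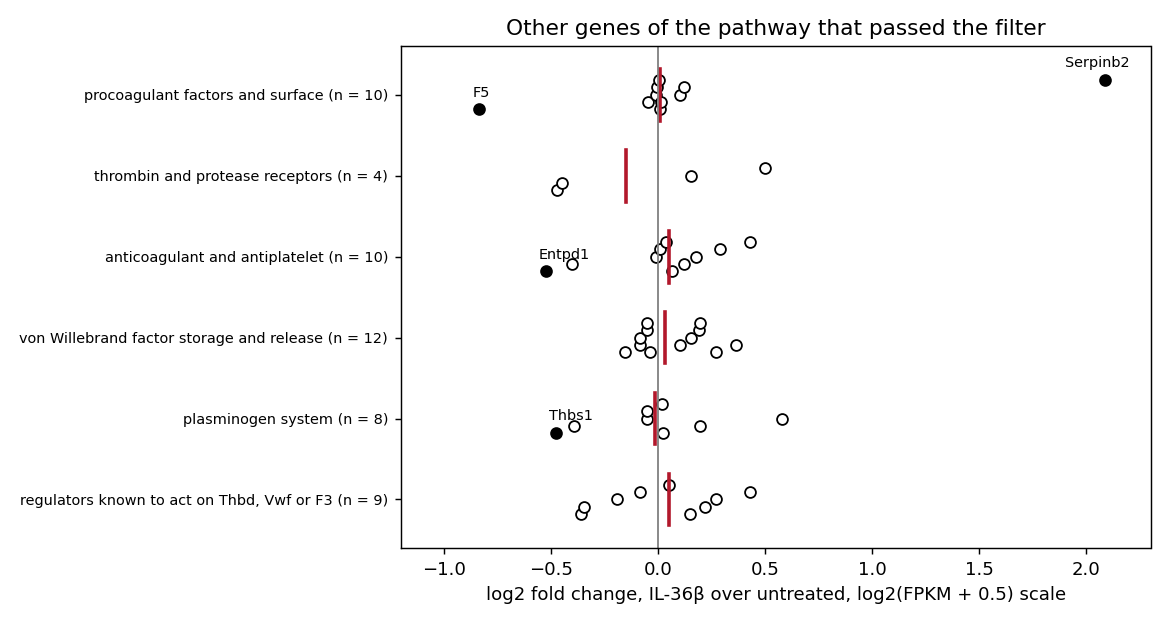
Log2 fold change, IL-36β over untreated on the log2(FPKM + 0.5) scale, of the 53 other pathway genes that passed the filter, by role; red bars are list medians and filled points the 4 genes that DESeq2 called. List medians lie between -0.15 and 0.05, and Serpinb2 is the point at 2.09.

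Of the protease-activated receptors, through which thrombin acts on endothelium, F2r was at 82.0, 66.9 and 82.8 FPKM with IL-36β and 134, 111 and 78.0 FPKM without. Untreated library 3 lay among the IL-36β libraries, and the log2 fold change of -0.45 did not pass (95% confidence interval -0.91 to 0.02; limma adjusted p = 0.499). F2rl2 was at 18.6 ± 4.60 FPKM with IL-36β and 16.6 ± 3.53 FPKM without (SD, n = 3 each, here and for the genes that follow). For the abundant genes that follow the groups overlapped. S100a10, the partner of Anxa2, was at 153 ± 14.8 FPKM with IL-36β and 151 ± 16.4 FPKM without. Anxa5, which shields anionic phospholipid from clotting factors, was at 462 ± 10.2 and 465 ± 15.0 FPKM, and Gas6, a vitamin K-dependent ligand, at 168 ± 31.9 and 159 ± 17.9 FPKM. The disulfide isomerases P4hb and Pdia3 were at 256 ± 11.3 and 253 ± 10.7 FPKM and at 234 ± 21.2 and 233 ± 11.5 FPKM. In the list headed storage and release of von Willebrand factor, Mmrn2 was at 166 ± 41.0 and 136 ± 17.0 FPKM and Cd63 at 109 ± 2.44 and 102 ± 12.2 FPKM. The place of Mmrn2 in that list does not show a role in this storage. The regulators Klf6 and Erg were at 151 ± 9.44 and 160.3 ± 4.65 FPKM and at 105 ± 11.2 and 89.9 ± 10.1 FPKM. In each of these pairs the IL-36β value is given before the untreated one, no difference passed, and each limma interval held 0.

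The genes most like each of the 9 over the 6 libraries were sought among 6699 genes with a mean of at least 5 FPKM by Pearson's r of log2(FPKM + 0.5). With 6 points that share 2 library sets and 2 treatments, a high r is easily reached, and these are descriptions only. Vwf was most like Flt1, the endothelial VEGF receptor 1, with r = 0.997, and then Rbm43. F3 was most like Ugdh and Sema3e, Thbd like Papd5 and Fyn, and Procr like Mrps18a and Fkbp2. Tfpi was most like Srsf11 and Ero1l and Plat like Dnajb6 and Ap3s1-ps1. Plau was most like Slc35e1 and Rmnd5b, Plaur like Drosha and Mtdh, and Anxa2 like Ccnh and Metap1. No other member of the 9 was among these, and r lay between 0.967 and 0.998.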

How the data were processed

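Total RNA went into Illumina stranded mRNA libraries for the NextSeq 500, per the labels' protocols; the submitters' processing notes list GRCm38 and, with no roles, DESeq2 1.38.3, featureCounts 1.50-p3, HISAT2 2.05, StringTie and fastp. No source used here states how strand was handled in counting. FPKM for all genes were deposited by the authors, with, for 660 genes, raw counts, a normalized signal, log2 fold changes and p-values; the highest p-value there is 0.04995. The tables' 8 columns of 4 other libraries were not used. Columns were matched to samples by library name. FPKM times gene length and a factor per library gave whole reads (100% of values above 0 within 0.01) that equalled the deposited counts in all 660 genes.

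Groups were compared two-sided with limma 3.58.1 (trended prior, R 4.3.3) on log2(FPKM + 0.5) over 12618 genes with at least 0.5 FPKM in at least 3 of 6 libraries, with Benjamini-Hochberg adjusted p under 0.05 as threshold. Fold changes are on that scale, so those of low genes are understated. Alternatives on recovered reads were the quasi-likelihood test of edgeR 4.0.16 and DESeq2 1.42.0; all were run on the same genes, of which DESeq2 gave 12372 an adjusted p. The members, lists and alternatives were chosen with earlier results of these data known. Genes named besides the 9 were S100a10, F2r, any pathway gene past the threshold, the 2 most abundant of each list and the 2 most alike; others, Klf2 and Klf4 included, were picked with their values in view. One gene that this rule names is not reported here. Intervals cover only the spread between these libraries.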

Additional observations from a re-analysis of the deposited data

How the results depend on the processing

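For the 9 genes, 153 of 171 values under other settings kept their direction and their side of the threshold, 16 turned direction and 2 passed it; the cause was not tested. Changing the filter or blocking by title number leaves each log2 fold change as it was, so in those settings the direction could not turn. The tally is therefore no measure of robustness. DESeq2 called Thbd (log2 fold change -0.40), and the same with filtering set for an adjusted p of 0.05, chosen after seeing the data. So DESeq2 called 1 of the 9 and 4 of the other pathway genes, where limma called 0; without IL-36β library 1 limma called 1 pathway gene. Plat (0.03 over all libraries) turned to -0.0063 with quantile scaling, -0.055 with TPM scaling, -0.012 in edgeR, -0.049 in edgeR without TMM and -0.016 in DESeq2, and was 0.38 with a term for the library set. With the library letter as block, Tfpi turned to 0.023 and Anxa2 to 0.048, and F3 was -0.30. Leaving out 1 library at a time gave -1.54 to -0.54 for F3, -0.85 to -0.22 for Tfpi, 0.10 to 0.29 for Procr, -0.38 to 0.37 for Plat, -0.13 to 0.066 for Plau, -0.028 to 0.49 for Plaur and -0.094 to 0.0084 for Anxa2. Over all genes limma called 23; the count was 0 with no filter, where 1751 genes had an unadjusted p under 0.05, 15 with TPM scaling, 37 in edgeR, 260 in DESeq2, 102 with a term for the library set, 78 with the letter as block and 2 to 8 without 1 library. With the title number as replicate block it was 13 and none of the 9 was called. Title numbers and library letters give different pairings, so neither was taken to pair libraries. Deviations of same-numbered libraries had r = 0.207, -0.141 and 0.211. For the same-letter pairs r was 0.207 (A) and 0.275 (D), with no partner for B and E. IL-36β library 1 and untreated library 2, which share neither, had r = 0.388, so these values do not decide the pairing. With 3 libraries a group the intervals stayed wide, from 0.212-fold to 1.01-fold for F3 and from 0.385-fold to 1.37-fold for Tfpi.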

Other observations

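Selp, which encodes P-selectin, the platelet and leukocyte adhesion receptor stored with von Willebrand factor, did not pass the filter on low values and is named with its values in view. It was at 0.146, 1.05 and 1.26 FPKM in IL-36β libraries 1 to 3, from 10, 76 and 101 reads, against 0.014, 0.011 and 0.029 FPKM in untreated libraries, from 1, 1 and 2 reads. Every IL-36β library was above every untreated one, most in libraries D and E. Of all genes that passed the filter, 16.2% did not overlap in either direction. In the fit without a filter the log2 fold change of Selp was 1.22 (95% confidence interval 0.32 to 2.12; limma adjusted p = 0.545). Other listed genes below the filter did not overlap either. Serpinf2 was higher with IL-36β (log2 fold change 0.26), and Vtn (-0.22) and Adamts13 (-0.13) were lower, all from few reads.

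Among transcription factors known to act on these genes, Gata2 was at 30.3, 33.5 and 45.4 FPKM with IL-36β and 23.9, 25.5 and 30.3 FPKM without (log2 fold change 0.43; limma adjusted p = 0.442). Nfat5 was at 2.89, 3.04 and 2.85 FPKM with IL-36β and 4.47, 3.69 and 3.45 FPKM without (log2 fold change -0.35; limma adjusted p = 0.405). Both were chosen after their values were seen.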
